A study of Glycine max with 10 samples.

Results

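Glycinin and beta-conglycinin are the main storage proteins of the soybean seed, and 6 of their genes were followed through 10 pod libraries. The genes were chosen by name, with earlier results of these libraries known, and make up 6 of the 56044 genes in the count table. There are 4 glycinin genes, Gy1 (Glyma.03G163500.Wm82.a2.v1, chromosome 3), Gy3 (Glyma.19G164900.Wm82.a2.v1, chromosome 19), Gy4 (Glyma.10G037100.Wm82.a2.v1, chromosome 10) and Gy5 (Glyma.13G123500.Wm82.a2.v1, chromosome 13), and 2 beta-conglycinin genes, for the alpha-prime chain (Glyma.10G246300.Wm82.a2.v1, chromosome 10, here CG-alpha-prime) and the alpha chain (Glyma.20G148400.Wm82.a2.v1, chromosome 20, here CG-alpha). The pairing of names with gene IDs is recalled from published soybean work and is not in the file. The RefSeq gene table (assembly Glycine_max_v4.0) matched 0 of the IDs, but its symbols GY1, GY3, GY4, GY5, CG-1 and CG-3 lie on the chromosomes that these 6 IDs name.

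Both proteins are globulins that the embryo makes during seed filling, stores in protein vacuoles of the cotyledons and breaks down after germination as a supply of amino acids. Glycinin is a legumin-type globulin whose subunits are each cut into an acidic and a basic chain held together by a disulfide bond. Gy1 and Gy3 encode subunits of one sequence group and Gy4 and Gy5 those of another. Beta-conglycinin is a vicilin-type globulin assembled from alpha, alpha-prime and beta subunits and carries N-linked sugars. Genes of both families are switched on in the maturing embryo under seed transcription factors.

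The libraries came from pods of field-grown soybean (Glycine max), taken 18 days after flowering, and were compared to find genes that differ with pod dehiscence. Soybeans 015, 018, 044, 060 and 071 had high pod shattering force (high_force, n = 5), and soybeans 038, 055, 072, 092 and 109 had low pod shattering force (low_force, n = 5). No treatment, genotype or age beyond this is given, nor whether a numbered soybean is a plant, a line or a pool, so spread between libraries may be biological or technical. The labels name pods without saying whether seeds were left in, and give no batch. In such bulk samples fewer seed cells and less RNA per cell cannot be told apart. Totals ran from 3779756 to 13298201 counts. Levels are given as CPM, counts scaled by the library size after trimmed mean of M-values (TMM) normalisation, which ranged from 921615 counts (low_force 055) to 20099288 counts (high_force 044). Low_force 055 had a total of 6528403 counts but a TMM factor of 0.141, against 0.874 to 1.52 in the other libraries. It had 30465 genes with counts, against 37611 to 41462 in the others. Its small scaled size thus reflects this factor and not a low total. A gene with 0 counts could still stand at the level of 3 counts, which is 0.149 CPM in high_force 044 and 3.26 CPM in low_force 055. These limits, like the intervals below, cover counting error only. No marker of the pod wall is annotated in the file. Under the same recalled pairing, the secondary wall genes SHAT1-5 (Glyma.16G019400) and NST1A (Glyma.07G050600) were read in all 10 libraries, at 17.4 to 30.8 CPM and 25.4 to 44.9 CPM.

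Gy1, which encodes a major glycinin subunit, had counts in every library. Its level in high_force was 9.74 CPM in soybean 015, 11.1 in 018, 0.299 in 044, 65.3 in 060 and 4.66 in 071. In low_force it was 1.97 CPM in soybean 038, 5.43 in 055, 8.50 in 072, 40.5 in 092 and 5571 in 109. Low_force 109 stood far above all other libraries, high_force 060 and low_force 092 formed the next step, and the remaining libraries of both groups overlapped. High_force 044, the most deeply sequenced library, held the lowest level on 6 counts (95% Poisson interval 0.11 to 0.65 CPM). Among the other 9 libraries the highest and lowest Gy1 levels were thus 218.9-fold apart, and both belonged to high_force.

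Gy3, a close relative of Gy1, was read above 3 counts in only 4 of the other 9 libraries. It stood at 1.32 CPM in high_force 015, 1.499 in 018, 0 in 044, 3.76 in 060 and 0.0832 in 071. In low_force it stood at 0 CPM in soybeans 038 and 055, 0.230 in 072, 4.29 in 092 and 176.9 in 109. The 3 libraries with 0 counts were high_force 044 and low_force 038 and 055, and for low_force 055 the limit of 3.26 CPM reaches close to the level of low_force 092.

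Gy4 and Gy5, which encode the larger glycinin subunits of the second sequence group, showed the same steps. Gy4 was at 2.81 CPM in high_force 015, 3.93 in 018, 0.0995 in 044, 18.2 in 060 and 2.08 in 071. In low_force it was at 2.44 CPM in soybean 038, 1.09 in 055, 2.53 in 072, 9.78 in 092 and 2435 in 109. High_force 060 and low_force 092 again followed low_force 109, while 5 of the remaining 7 libraries lay between 2.08 and 3.93 CPM. Gy5 was at 1.65 CPM in high_force 015, 1.69 in 018, 0.0995 in 044, 7.70 in 060 and 0.749 in 071. In low_force it was at 1.74 CPM in soybean 038, 0 in 055, 2.07 in 072, 6.09 in 092 and 735.3 in 109. The Poisson intervals of Gy5 in high_force 060 (5.52 to 10.4 CPM) and low_force 092 (4.66 to 7.82 CPM) overlapped, so the order of these 2 libraries is not resolved for this gene.

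CG-alpha-prime, a beta-conglycinin chain with an acidic N-terminal extension, differed from the glycinin genes most in low_force 038. Its level was 3.96 CPM in high_force 015, 6.18 in 018, 0.149 in 044, 43.0 in 060 and 2.08 in 071. In low_force it was 18.9 CPM in soybean 038, 3.26 in 055, 5.98 in 072, 8.28 in 092 and 4225 in 109. Low_force 038 was here the next library after low_force 109 and high_force 060, above low_force 092, whereas for Gy1 only high_force 044 was lower than low_force 038. The CG-alpha-prime intervals of low_force 038 (16.1 to 22.1 CPM) and low_force 092 (6.60 to 10.3 CPM) did not overlap. For Gy1 the intervals of low_force 038 (1.15 to 3.16 CPM) and low_force 055 (1.76 to 12.7 CPM, on 5 counts) overlapped. The order of these 2 libraries is therefore not resolved for Gy1.

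CG-alpha had 111 counts in low_force 109 (11.2 CPM), 1 count each in low_force 038, 072 and 092, and 0 counts in low_force 055 and all 5 high_force libraries. None of the other 9 libraries exceeded 3 counts. Against low_force 072, the highest of them by CPM, low_force 109 was 48.7-fold higher (95% interval 8.55 to 1939), and against the limit of low_force 055 it was at least 3.44-fold higher. How the authors counted reads that match several genes is not given. The alpha genes are near-identical copies, so these counts may hold only part of the alpha reads, and counts of other close copies are uncertain in the same way.

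**Figure D1:**
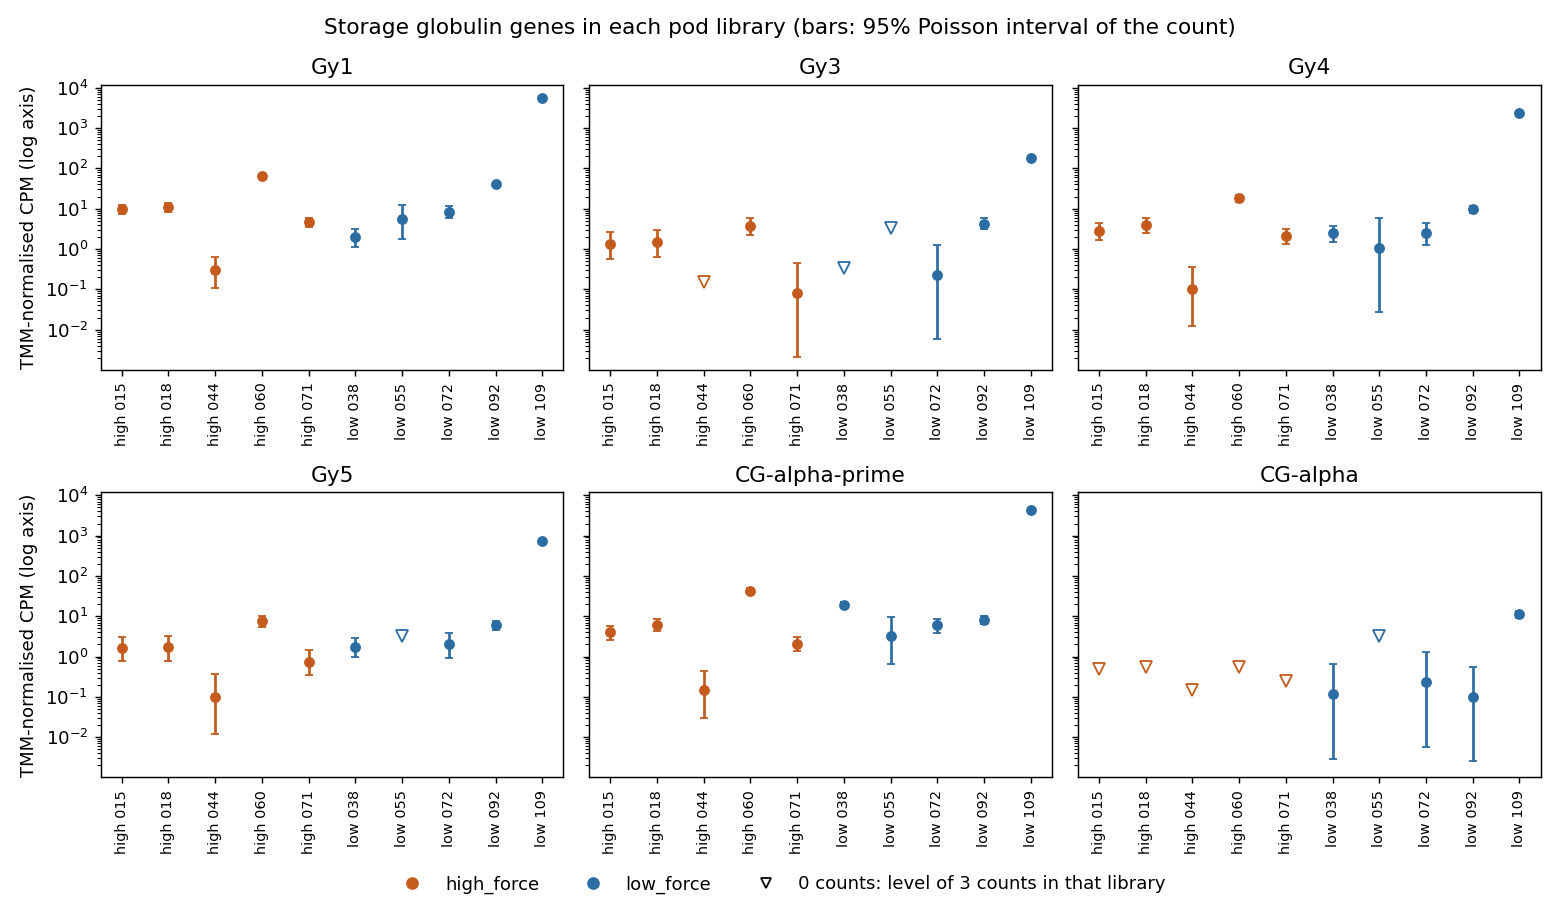
CPM after TMM scaling (log axis) of each of the 6 storage globulin genes in the 10 libraries, with high_force in orange, low_force in blue, 95% Poisson intervals of the count as bars and an open triangle at the level of 3 counts where a library had 0 counts. Low_force 109 is the highest library in every panel, at 5571 CPM for Gy1 and 11.2 CPM for CG-alpha, and for CG-alpha-prime low_force 038 (18.9 CPM) lies above low_force 092 (8.28 CPM).

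In low_force 109 the 6 genes together held 130570 counts, 1.65% of the library. In the other 9 libraries they held between 9 counts (low_force 055) and 735 counts (high_force 060), which is 9.78e-05% of the library in high_force 044 and 0.0183% in high_force 060 at the extremes. Read counts, which are not corrected for gene length and so do not order the genes by level, placed Gy1 at rank 7, CG-alpha-prime at rank 10, Gy4 at rank 19, Gy5 at rank 49 and Gy3 at rank 360 among all genes of low_force 109. CG-alpha was at rank 14049 there. In high_force 060 Gy1 was at rank 1756 and CG-alpha-prime at rank 3367.

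All 6 genes were at least 10-fold higher in low_force 109 than in each other library, with the reservation given above for CG-alpha in low_force 055. Of the 27832 genes with 20 or more counts in low_force 109, 159 did so, these 6 included, a background of 0.571%. Among the 30226 genes kept for testing it was 9 genes, or 0.0298%, of which 5 are storage globulin genes and 4 are others, since the filter on low counts removes most genes that only 1 library expresses. The 6 genes were followed with this pattern known, and the comparison of 1 library with the others has no replicate, so these values are descriptive. The fold over the next highest library was 41.2 for Gy3 (95% interval 30.5 to 57.2, next library low_force 092), 85.3 for Gy1 (76.7 to 95.004), 95.5 for Gy5 (70.3 to 133.2), 98.3 for CG-alpha-prime (86.3 to 112.4) and 133.7 for Gy4 (109.5 to 164.9), the last 4 over high_force 060. The interval of Gy3 lay below those of the other 4 genes, and that of Gy4 overlapped with Gy5 and CG-alpha-prime.

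**Figure D2:**
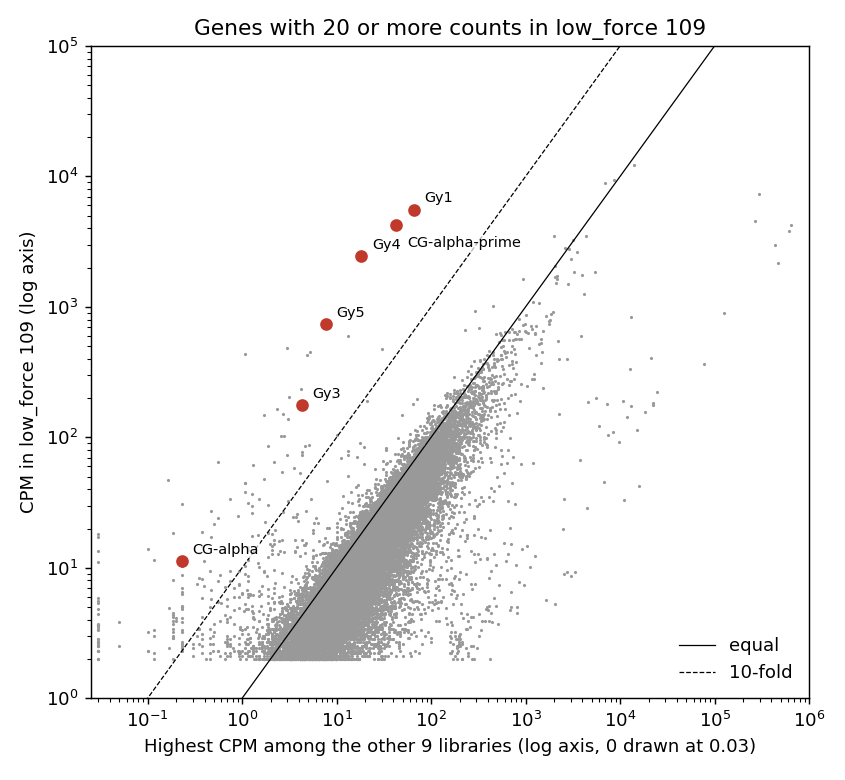
CPM in low_force 109 (vertical, log axis) against the highest CPM among the other 9 libraries (horizontal, log axis) for genes with 20 or more counts in low_force 109, with the storage globulin genes in red, a solid line for equal levels and a dashed line for a 10-fold difference. The 6 genes lie above the dashed line, as do 159 of the 27832 genes drawn.

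With 1 stage sampled, an order of onset in time was not measured. What the libraries give is how widely each gene was read. Gy1 exceeded 3 counts in 9 of the other 9 libraries, Gy4, Gy5 and CG-alpha-prime in 7, Gy3 in 4 and CG-alpha in 0. The genes with more reads in low_force 109 were also those read in more of the other libraries, so breadth of detection and read number cannot be told apart. Relative to low_force 109, high_force 060 reached 1.17% of the CPM for Gy1, 2.12% for Gy3, 0.748% for Gy4, 1.05% for Gy5 and 1.02% for CG-alpha-prime. Low_force 092 reached 0.727% for Gy1, 2.43% for Gy3, 0.402% for Gy4, 0.828% for Gy5 and 0.196% for CG-alpha-prime. In both libraries Gy3 was thus the gene nearest to its level in low_force 109. Low_force 038 reached 0.0354% for Gy1, 0.1001% for Gy4, 0.237% for Gy5 and 0.448% for CG-alpha-prime, with 0 counts of Gy3, a different profile from either.

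The make-up of the storage globulin counts was compared across the 8 libraries with at least 20 such counts, leaving out high_force 044 (13 counts) and low_force 055 (9 counts). A given gene is compared between libraries, which needs no gene length. Gy1 held 42.4% of the counts in low_force 109 (95% Clopper-Pearson interval 42.1 to 42.6) and 47.3% in high_force 060 (43.7 to 51.03). It held 58.7% in low_force 092 (54.9 to 62.4) and 7.83% in low_force 038 (4.63 to 12.2). CG-alpha-prime held 32.1% in low_force 109 (31.9 to 32.4) and 31.2% in high_force 060 (27.8 to 34.6), so these 2 libraries agree in this share within counting error although their storage globulin totals differ by far. In low_force 092 its share was 11.99% (9.67 to 14.7), and in low_force 038 it was 75.1% (68.8 to 80.7). In the remaining 4 libraries the CG-alpha-prime share was 20.3% in high_force 015, 25.4% in 018, 21.6% in 071 and 30.6% in low_force 072, on 24 to 33 counts each.

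**Figure D3:**
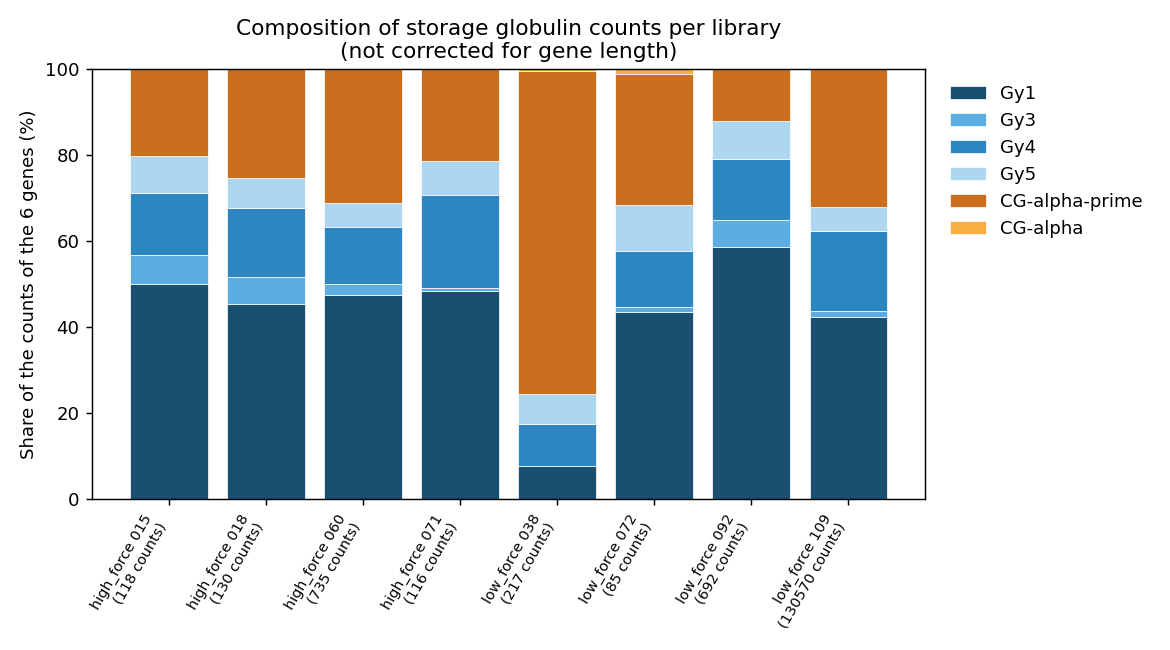
Share (%) of the counts of the 6 storage globulin genes held by each gene in the 8 libraries with at least 20 such counts, glycinin genes in blue and beta-conglycinin genes in orange. CG-alpha-prime takes 75.1% in low_force 038, against 11.99% to 32.1% in the other 7 libraries.

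The ratio of CG-alpha-prime to Gy1 counts was higher in low_force 038 than in every other library with enough reads, beyond counting error. It was 9.59 there (163 against 17 counts, 95% interval 5.81 to 16.9). In low_force 109 the ratio was 0.758 (0.749 to 0.768), in low_force 072 it was 0.703 (0.409 to 1.19) and in low_force 092 it was 0.204 (0.159 to 0.259). In high_force it was 0.407 in soybean 015, 0.559 in 018, 0.658 in 060 and 0.446 in 071. The 4 high_force values lay within the span of low_force, so the groups overlapped in this ratio. Conglycinin to glycinin counts, with both beta-conglycinin chains and all 4 glycinin genes summed, gave the same order at the extremes, with 3.09 in low_force 038 (2.26 to 4.302), 0.475 in low_force 109 (0.469 to 0.481) and 0.138 in low_force 092 (0.109 to 0.174).

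Among glycinin genes, Gy4 to Gy1, without low_force 038, ran from 0.241 (low_force 092) to 0.446 (high_force 071), and Gy5 to Gy1 from 0.118 (high_force 060) to 0.243 (low_force 072). In low_force 038 these ratios were 1.24 (0.621 to 2.49) and 0.882 (0.410 to 1.88), on 17 Gy1 counts. Gy5 to Gy4, which does not involve Gy1, was 0.714 in low_force 038 (0.343 to 1.45), and this interval overlapped those of all other libraries except low_force 109 (0.302, 0.294 to 0.310). Gy3 to Gy1 ranged more widely, 7.59-fold over the 7 libraries with enough counts, where CG-alpha-prime to Gy1 without low_force 038 ranged 3.71-fold, but its lowest values rest on 1 Gy3 count. It was 0.0318 in low_force 109 (0.0303 to 0.0333), 0.0575 in high_force 060 (0.0347 to 0.0901) and 0.106 in low_force 092 (0.0755 to 0.145). The intervals do not overlap between low_force 109 and the other 2 libraries. Gy4 to Gy1 was 0.279 in high_force 060 (0.220 to 0.350) and 0.437 in low_force 109 (0.431 to 0.444), also without overlap. Low_force 038 and 092 and high_force 060 thus each differed from low_force 109 in make-up beyond counting error. For CG-alpha-prime to Gy1, low_force 038 and 092 differed from low_force 109 in opposite directions. The interval of high_force 060 for that ratio (0.555 to 0.780) overlapped with low_force 109. These intervals compare single libraries, not the groups.

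**Figure D4:**
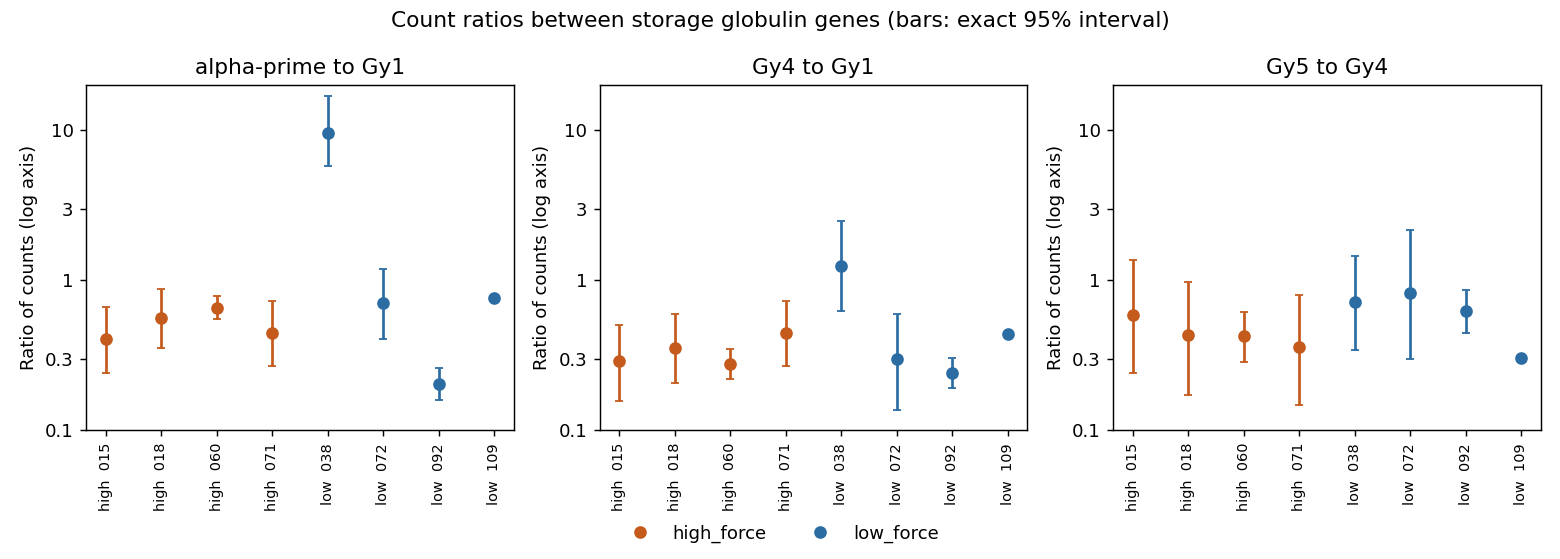
Count ratios (log axis) of CG-alpha-prime to Gy1, Gy4 to Gy1 and Gy5 to Gy4 in the 8 libraries with at least 20 counts of the 6 genes, high_force in orange and low_force in blue, with exact 95% intervals as bars. Low_force 038 stands at 9.59 in the first panel, above the other 7 libraries at 0.204 to 0.758, and within the intervals of most libraries in the third.

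High_force was then tested against low_force over all genes by edgeR's quasi-likelihood test. Gy1 averaged 18.2 ± 26.7 CPM over the high_force libraries against 1125 ± 2485 CPM over those of low_force (SD, n = 5 per group), or 14.1 ± 17.8 CPM in low_force without soybean 109 (SD, n = 4). CG-alpha-prime averaged 11.1 ± 18.0 CPM against 852.2 ± 1885 CPM (SD, n = 5 per group), and 9.11 ± 6.86 CPM without soybean 109. The SD exceeded the mean in high_force and in low_force for both genes. All 6 genes overlapped between the groups, whereas 0.986% of the genes tested did not overlap. Log2 fold changes (high_force minus low_force) were -5.96 for Gy1 (SE 2.21), -5.01 for Gy3 (SE 1.85), -6.54 for Gy4 (SE 2.21), -6.09 for Gy5 (SE 1.96) and -6.29 for CG-alpha-prime (SE 2.22). CG-alpha was removed by the filter. None of the 5 tested genes passed after Benjamini-Hochberg adjustment over all 30226 genes in edgeR (adjusted p = 0.796 each), where the background of genes called was 0% in either direction. Without adjustment all 5 had p between 0.00879 and 0.0188 in edgeR, and 1893 genes had p under 0.05 (6.26%; 3.79% with lower levels in high_force).

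The values rest on low_force 109. Without it, the log2 fold changes were 0.28 for Gy1, -0.20 for Gy3, 0.28 for Gy4, -0.32 for Gy5 and 0.17 for CG-alpha-prime, each smaller than its SE (0.98 to 1.34), with unadjusted p between 0.748 and 0.882 in edgeR and adjusted p of at least 0.962. Without high_force 060, the highest library of its group, they were between -8.16 and -6.02. A two-sided exact permutation test of the mean log2 CPM over every assignment of the 10 libraries to the groups (a design that can reach p = 0.00794 at the lowest) gave p = 0.460 for Gy1, 0.722 for Gy3, 0.452 for Gy4, 0.500 for Gy5 and 0.270 for CG-alpha-prime. For CG-alpha the exact permutation p was 0.0476, unadjusted, but 3 of the 4 libraries that set low_force apart hold 1 count each, below the limit that 0 counts allow.

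**Figure D5:**
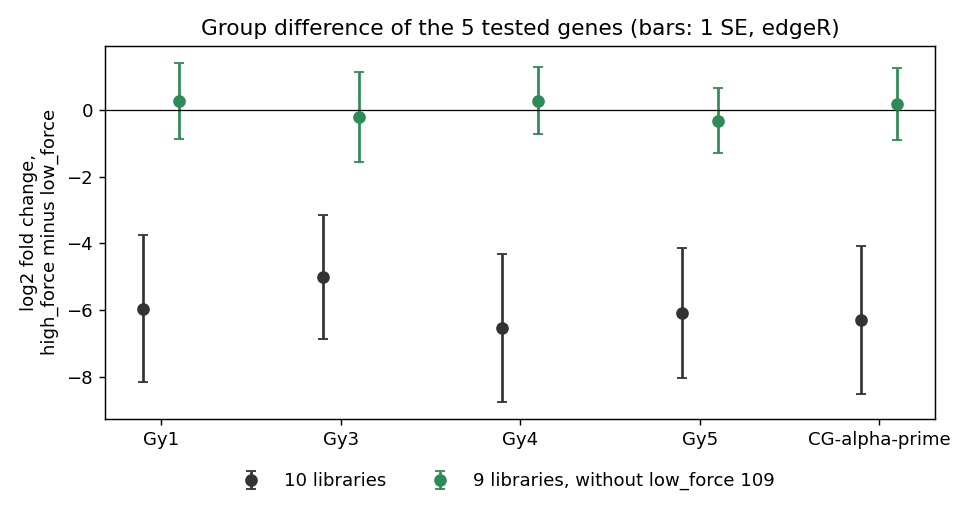
Log2 fold change between the groups (high_force minus low_force) from edgeR for the 5 tested genes, with 1 SE as bars, in all 10 libraries (black) and without low_force 109 (green). The black points lie between -6.54 and -5.01 and the green points between -0.32 and 0.28, each within 1 SE of 0.

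The genes next to the 6 in ID order on their chromosomes did not share the pattern, apart from 3 IDs. Of 120 neighbours, 10 on each side of every gene, 28 had 0 counts in all libraries and 3 were at least 10-fold higher in low_force 109 than in each other library, of which 2 had 20 or more counts there. Glyma.20G148300, the ID directly before CG-alpha, had 469 counts in low_force 109 (47.2 CPM), 1 count in high_force 015 and 0 in the others. Glyma.10G246500, 2 IDs after CG-alpha-prime, had 1026 counts in low_force 109 (103.4 CPM) and 88 in low_force 038 (10.2 CPM), and at most 8 in any other library. Low_force 038 was thus the second highest library for this neighbour, and for CG-alpha-prime it followed low_force 109 and high_force 060. Its ratio to CG-alpha-prime counts was 0.540 in low_force 038 (95% interval 0.412 to 0.704), 0.0245 in low_force 109 (0.0230 to 0.0260) and 0.0262 in high_force 060 (0.00952 to 0.0579). The file annotates neither ID. The RefSeq table places GY2 on chromosome 3 like GY1, GY7 on chromosome 19 like GY3, and CG-BETA-1 and CG-BETA-2 on chromosome 20. It pairs none of these with an ID, so Gy2, Gy7 and the beta chain were not analysed here.

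A list of 19 IDs was also compared, 14 as candidate seed reserve genes and 5 as candidate seed regulators, from recall of published work that no source here annotates. Of the 14 candidate reserve IDs, 2 had 0 counts everywhere and 10 were at least 10-fold higher in low_force 109 than in each other library. Among the 10 IDs with 20 or more counts in low_force 109 this held for 9, beside the background of 0.571% for genes with such counts. This list overlaps with the neighbours above, which hold 7 of the 14 IDs and 3 of the 10 that were at least 10-fold higher. Of the 7 IDs that are no neighbours all 7 were at least 10-fold higher. However, Glyma.20G146200 (27 counts, 2.72 CPM in low_force 109) and the neighbour Glyma.19G164800 (8 counts, 0.806 CPM) had 0 counts in every other library. Both levels lie below the limit of 3.26 CPM in low_force 055, so a 10-fold excess over that library is not shown for them. The list was drawn up with results of these libraries known. In edgeR's test 3 of the 14 were tested, with log2 fold changes of -5.84 (SE 2.09) for Glyma.08G116300, -5.22 (SE 1.96) for Glyma.08G341500 and -0.13 (SE 0.23) for Glyma.03G163600 (median -5.22, beside -0.01 over all genes tested), and 0 were called. Of the 5 candidate regulator IDs none was at least 10-fold higher in low_force 109. Of the 4 with 20 or more counts there, 3 were highest in that library. The share of all genes that are highest there was not counted, so these 3 are given as description only. Glyma.17G005600 stood at 8.97 CPM there (89 counts) and at most at 1.09 CPM elsewhere, on at most 2 counts in each other library. That 1.09 CPM is the level of 1 count in low_force 055. Glyma.08G357600 stood at 24.3 against at most 6.04 CPM, and Glyma.18G176100 at 14.3 against at most 3.83 CPM. The fourth, Glyma.16G050500, was the 1 tested and had a log2 fold change of 0.0057 (SE 0.27).

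Likeness to the storage globulin profile was measured as the root mean square difference, over the 10 libraries, between a gene's log2 CPM centred on its own mean and the mean centred profile of the 5 tested genes. Only tested genes were searched. They hold 3 of the 14 candidate reserve IDs, so the rest of that list was not ranked. The nearest other tested genes were Glyma.08G116300 (0.51, 933.2 CPM in low_force 109 and at most 11.1 CPM elsewhere) and Glyma.08G341500 (0.74, 594.1 CPM and at most 13.3 CPM). Both are from that list, which was drawn up with results of these libraries known. The storage globulin genes were also followed with their level in low_force 109 known, so the search is descriptive. Both genes are among the 4 other tested genes at least 10-fold higher in low_force 109. The 5 genes themselves lay between 0.26 (Gy4) and 0.91 (CG-alpha-prime) from the mean profile that they form. The median of all other tested genes, which do not form it, was 3.14. For Glyma.08G116300 high_force 060 (59 counts) and low_force 092 (56 counts) were the highest libraries after low_force 109, as for Gy1.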

How the data were processed

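The authors deposited 1 table of raw read counts per gene, whole numbers for 56044 genes in 10 pod libraries. Per the submitters' processing notes, the tools were TopHat2, featureCounts, edgeR, Trim Galore (version 0.4.4) and Subread (version 1.6.2), listed without role or setting. IDs end in Wm82.a2.v1, and no other mark of the genome build, of strand or of how reads with several matches were counted is given. Unannotated copies may therefore share reads with the genes named.

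Counts were filtered with filterByExpr (30226 genes kept), scaled by TMM and tested by quasi-likelihood (glmQLFTest, edgeR 4.0.16 under R 4.3.3; SE is the log2 fold change over the square root of F), adjusted by Benjamini-Hochberg over all genes tested, threshold 0.05, two-sided. The script was tested on simulated data. Log2 CPM used a prior count of 2. Shares, ratios and folds have exact 95% binomial intervals, levels Poisson intervals. The alternatives were relative log expression (RLE), upper-quartile and library size scaling, scaling without chromosome 13, other filters, DESeq2 1.42.0, limma-voom (limma 3.58.1), a robust fit and leaving out each soybean. No gene lengths were paired with the IDs, so counts were not divided by length.

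The members and lists were chosen with earlier results of these data known. Always named were the 6 genes, neighbours at least 10-fold higher in low_force 109 with 20 or more counts there, and the nearest profiles, limited to 2 IDs for lack of annotation. No sequence of these genes was at hand, so none is shown.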

Additional observations from a re-analysis of the deposited data

Results flagged for a closer look

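Within each group of 5 libraries, 16 sets of values were searched for a library far from the others, and 5 were found. The rule used picks about 1 in 20 sets by chance. The genes were followed with their level in low_force 109 known, and the share sums the same 6 genes. The 5 are therefore description and are not weighed against that rate. Low_force 109 stood apart in low_force for Gy4 (log2 CPM 11.25, others 0.41 to 3.33), CG-alpha-prime (12.04, others 1.81 to 4.26) and CG-alpha (3.51, others -2.05 to -1.08), and for the share of counts in the 6 genes (1.65%, others at most 0.00801%). High_force 060 stood apart in high_force for that share (0.0183%, others at most 0.00344%). Shares were searched as percent and gene levels as log2 CPM, and high_force 060 stood apart for none of the 6 genes.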

How the results depend on the processing

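No paired analysis was possible because the groups share no soybean number. Over all genes, edgeR's quasi-likelihood test called 0, with 1893 genes at unadjusted p under 0.05. DESeq2 called 14 (2 higher and 12 lower in high_force), limma-voom called 0, and with library size only edgeR called 62. Leaving out 1 soybean gave 0 to 1. Library size only moved the median log2 fold change of all genes to 0.54 and made all 5 tested storage globulin genes pass, at -5.89 (Gy1), -4.80 (Gy3), -6.45 (Gy4), -5.95 (Gy5) and -6.21 (CG-alpha-prime), with edgeR adjusted p of at most 4.37e-07, while the exact permutation p of these genes stayed between 0.468 and 0.730. The cause was not tested. With each soybean left out, the log2 fold changes ran from -7.48 to 0.28 (Gy1), -6.02 to -0.20 (Gy3), -7.85 to 0.28 (Gy4), -7.31 to -0.32 (Gy5) and -8.16 to 0.17 (CG-alpha-prime), the lower end without high_force 060 and the upper end without low_force 109, where Gy1, Gy4 and CG-alpha-prime changed sign. None passed, with edgeR adjusted p from 0.536 to 0.9999. DESeq2 gave log2 fold changes of -6.74 to -4.78 but returned no p for any of the 6 genes, and limma-voom gave -4.47 to -3.06 (adjusted p 0.625 to 0.678). Without a filter CG-alpha had -7.40 (SE 2.06, edgeR adjusted p = 0.612). The smallest fold of low_force 109 over the next library, 41.2 for Gy3, stayed within 40.05 to 44.8 under the other scalings. Against the median of the other 9 libraries the smallest was 436.1, for Gy5. Dividing counts by coding length was not run, and leaving out CG-alpha kept the shares of the other 5 genes and the conglycinin to glycinin ratio in low_force 109 within their intervals; other libraries were not run. Fewer than 10 counts lie behind most Gy3 values outside low_force 109, so differences among those libraries are limited by depth.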
